A study of Mus musculus with 10 samples.

Results

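Gata1 and Epor, a transcription factor and a receptor of red cell formation, were examined in mouse haematopoietic stem cells (HSCs) sorted with or without the surface protein Jam2. They are 2 of the 3 genes that were to be described and 2 of the 2721 genes whose identity could be placed in this array data set, out of 22180 genes with a row of 1 symbol. Alas2, the erythroid enzyme of haem synthesis, was the other gene. Its single row is paired with both Alas2 and Apex2, so it was dropped, and haem synthesis is described through the other genes of that pathway.

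RNA was measured on 10 single-colour arrays, 5 for each group, numbered 1, 2, 4, 5 and 6 in both. All cells came from 5 wild-type male mice of strain C57BL/6 SJL, whose age the labels do not give. Both groups were sorted for CD150+ and CD48- and for c-kit+ and Sca-I+ cells that were Lineage-, and they differed in whether Jam2 was on the cell surface. Nothing in the labels ties an array to a mouse, so p-values measure the spread between arrays, some of which may share an animal. In bulk RNA, fewer cells of a type and less RNA per cell cannot be told apart.

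GATA1 is the zinc finger factor that switches on most genes of the red cell and megakaryocyte programmes. The erythropoietin receptor, encoded by Epor, signals through the kinase JAK2 and the factor STAT5 and keeps red cell precursors alive. ALAS enzymes carry out the first and rate-limiting step of haem synthesis, Alas1 in all tissues and Alas2 in erythroid cells. Stem cells lie upstream of this programme, and low levels of some of its genes in them are often described as lineage priming.

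All gene names here are inferred. In the deposited table the row IDs did not go with the values, and names were taken from a displacement in which the last 5562 IDs receive the values at the top of the table. Under it the 17 ribosomal protein genes had a median level of 11.63 on the log2 scale of the deposited values, and the 140 olfactory and vomeronasal receptor genes, whose products sense odours and pheromones, had 3.63. As deposited these medians were 6.77 and 5.09. Xist, the long RNA that silences an X chromosome in female cells, was at 4.61 in these male mice, and the Y-linked genes Eif2s3y, Kdm5d and Uty were at 8.85, 7.69 and 7.95. As deposited, Xist was at 9.35 and the Y-linked genes at 2.94, 8.57 and 3.83.

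The placement was also examined close to each gene. Rows with identical values on all arrays give a check that uses no level of any gene. Under the displacement they formed 20 neighbouring pairs with 1 symbol each, and 20 of 20 joined rows of the same gene. When every other number of last IDs was tried in the same way, pairs of the same gene outnumbered pairs of different genes by at most 1. Gata1, at position 2990, lay between positions 2704 and 3505, which hold the same values and are both named Prame. No identical pair lay near Epor, at position 1365. Among the 300 IDs nearest to Epor, the 46 receptor genes had a median of 3.54, and the 2 ribosomal protein genes were at 12.26 and 12.27. The rows that flank Gata1 included Hdac6 at 8.10, Was, a cytoskeletal regulator of blood cells, at 8.99, Glod5 at 3.97 and Ssxb6, a testis-type gene, at 3.77. Levels of gene families were how the displacement was first found, so they describe it and do not test it. The identical rows cover positions 2656 to 4670, and the place of Epor rests on a displacement that is the same throughout.

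**Figure D1:**
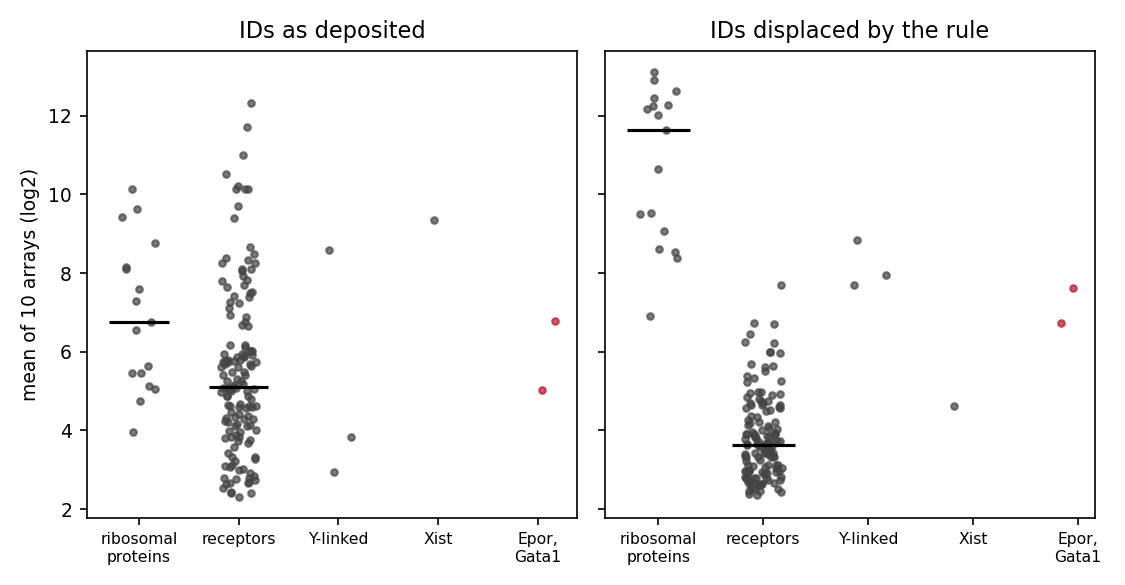
Mean log2 value over 10 arrays of ribosomal protein genes, olfactory and vomeronasal receptor genes, 3 Y-linked genes, Xist, and Epor and Gata1, with IDs as deposited (left) and displaced (right). Each point is a gene and black lines are medians; on the right the ribosomal median is 11.63 and the receptor median 3.63.

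The cell type was checked against stem cell markers that could be placed. The 5 placed genes of the stem cell list ranged from 6.25 for Jam3, with 4 of 140 receptor genes brighter, to 9.95 for Trpc6, with 0 brighter. The 4 placed T and NK cell genes ranged from 4.49 for Cd3g, with 36 of the 140 brighter, to 6.96 for Thy1, with 1 brighter. Only Thy1 overlapped the stem cell range. The other T and NK cell genes reached at most 5.68, that of Cd3e, with 10 brighter. Btk, of the B cell list, was at 8.76, with 0 receptor genes brighter. The placed megakaryocyte genes ran from 6.34 for Ets1 to 11.25 for Fli1, and the red cell genes Xk and Icam4 were at 7.84 and 8.35. Of the neutrophil and monocyte list, Ngp was at 6.54 and the others reached at most 5.64, that of Ltf. These levels set the stem cell list apart from the CD3 genes, but not from Thy1, Btk, Ngp or the megakaryocyte and red cell genes. They compare different probes, which differ in how strongly they bind, so they are only a rough guide. Array medians lay between 5.96 and 6.05. Arrays Jam2+ replicate 1 and Jam2- replicate 6 correlated least with the other arrays (mean r = 0.970 and 0.968 across rows, against 0.976 to 0.980), and differences whose sign changed with that pair left out are given in the closing section. Jam2 itself, and Kit, Slamf1, Cd48 and Ly6a of the sort, were not analysed here.

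The stretch before the start site of each gene is shown because GATA and CACCC-type motifs in promoters are the known route by which GATA1 and its partners, such as KLF1, act on red cell genes. Both are the 250 bases before the start in RefSeq, assembly GRCm38.p6, read on the minus strand, at chrX:7967911-7968160 for Gata1 and chr9:21963577-21963826 for Epor. Capitals mark CCACCC and 4 forms of the GATA motif (AGATAA, then AGATAG, also TGATAA, and TGATAG), each searched on both strands.

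Gata1: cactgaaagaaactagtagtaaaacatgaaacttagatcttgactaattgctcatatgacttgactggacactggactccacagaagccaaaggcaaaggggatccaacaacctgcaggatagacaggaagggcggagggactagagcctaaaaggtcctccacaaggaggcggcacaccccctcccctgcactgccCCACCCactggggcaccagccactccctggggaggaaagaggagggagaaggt

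Epor: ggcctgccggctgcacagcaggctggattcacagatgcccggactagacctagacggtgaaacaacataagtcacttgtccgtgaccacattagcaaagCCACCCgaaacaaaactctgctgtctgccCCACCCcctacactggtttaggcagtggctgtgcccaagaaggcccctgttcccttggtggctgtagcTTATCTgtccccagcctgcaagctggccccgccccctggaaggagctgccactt

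The Epor stretch held the GATA form AGATAA, read as TTATCT on the gene's strand, 54 to 49 bases before the start. It also held CCACCC at 151 to 146 and at 122 to 117 bases before the start. The Gata1 stretch held CCACCC at 53 to 48 bases before the start and none of the 4 GATA forms. No 2 matches overlapped. Of 32851 promoter stretches of this length, 26.5% held any of the 4 GATA forms, 9.99% held AGATAA and 28.1% held CCACCC. A match is a run of letters and not a site shown to be bound.

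Gata1 (row 17539966, chromosome X) was at 6.50, 6.77, 6.78, 6.64 and 6.74 in Jam2+ replicates 1, 2, 4, 5 and 6. In Jam2- HSCs it was at 6.64, 6.73, 7.15, 6.93 and 6.52, in the same order. The highest value on any array was that of Jam2- replicate 4 and the lowest that of Jam2+ replicate 1, and the groups overlapped. Of the Jam2+ arrays, 4 of 5 lay within the Jam2- range. The mean of the Jam2+ arrays was 6.69 ± 0.12 (SD, n = 5), and that of the Jam2- arrays was 6.79 ± 0.25 (SD, n = 5).

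The Gata1 difference, Jam2+ minus Jam2-, was -0.11 on the log2 scale, with a standard error (SE) of 0.12. Its 95% interval ran from -0.38 to 0.16, or 0.771-fold to 1.12-fold, so a change larger than that in either direction lay outside the interval. The limma adjusted p over 41345 rows was 1.00 and the exact two-sided permutation p 0.437, where 0.00794 is the smallest that 5 arrays against 5 allow. Jam2+ was higher in 2 of 5 same-numbered comparisons, whose differences ran from -0.37 to 0.22. Jam2- replicate 4 carried most of the difference, which was -0.017 without it.

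Epor (row 17524847, chromosome 9) was at 7.79, 7.69, 7.56, 7.65 and 7.54 in Jam2+ replicates 1, 2, 4, 5 and 6. In Jam2- HSCs it was at 7.55, 7.65, 7.60, 7.68 and 7.51. Only Jam2+ replicates 1 and 2 exceeded every Jam2- array, and all 10 values lay within a narrow band. The mean of the Jam2+ arrays was 7.64 ± 0.10 (SD, n = 5), and that of the Jam2- arrays was 7.60 ± 0.069 (SD, n = 5).

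The Epor difference was 0.05 (SE 0.074), with a 95% interval from -0.12 to 0.21, or 0.923-fold to 1.16-fold. The limma adjusted p was 1.00 and the exact permutation p 0.429. Jam2+ was higher in 3 of 5 same-numbered comparisons, and that of replicate 1, at 0.24, was the largest. With Jam2+ replicate 1 and Jam2- replicate 6 both dropped it was -0.012.

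The array values therefore gave no difference beyond the replicate spread for either gene. Over all rows, limma called 0 of 41345 (0%) at an adjusted p under 0.05, and 4.08% had an unadjusted p under 0.05. That 4.08% was made of 929 higher and 759 lower rows; with each array's median subtracted the split was 641 higher and 1085 lower. Neither gene was among these rows.

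**Figure D2:**
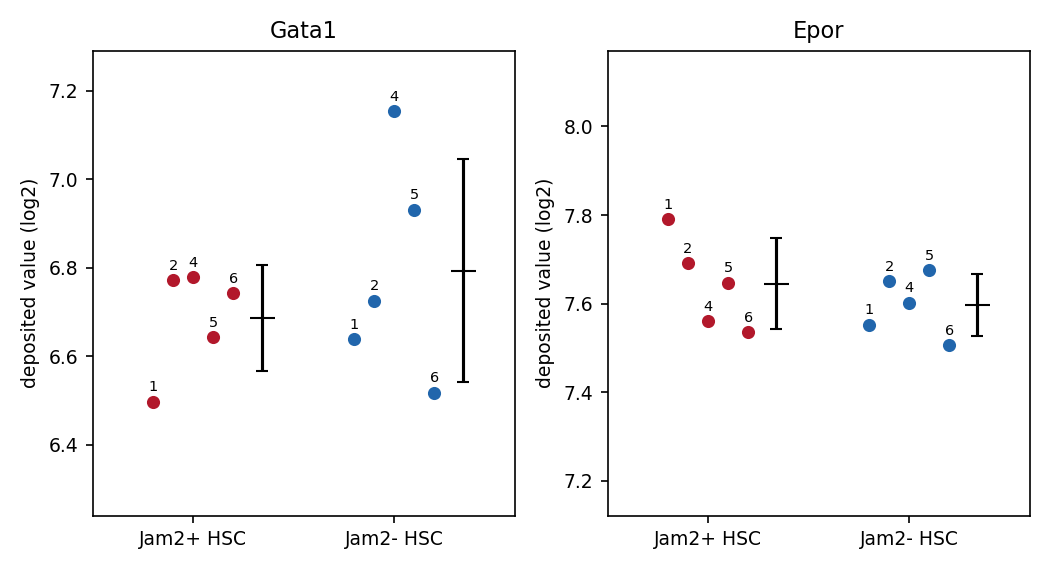
Deposited log2 values of Gata1 (left) and Epor (right) on each array, numbered by replicate, in Jam2+ (red) and Jam2- (blue) HSCs; black bars are mean ± SD, n = 5, and both panels span the same height. Jam2- values of Gata1 run from 6.52 to 7.15 and enclose all Jam2+ values but that of replicate 1, while all Epor values lie between 7.51 and 7.79.

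Both genes were above nearly all receptor genes: 1 of 140 receptor genes was brighter than Gata1, and 1 of 140 was brighter than Epor. Probes differ in how strongly they bind, so levels of Gata1 and Epor are not ranked against each other. They differed in how tightly the arrays agreed. The within-group SD of Epor was 0.088, and 7 of the 391 genes with a mean within 0.5 of it (1.79%) had a smaller one; the median of those genes was 0.198. Gata1 had a within-group SD of 0.197 against a median of 0.189 over 418 genes of like level, with 53.6% smaller. The SD of Gata1 was 0.12 among Jam2+ and 0.25 among Jam2- arrays; this gap was not tested.

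**Figure D3:**
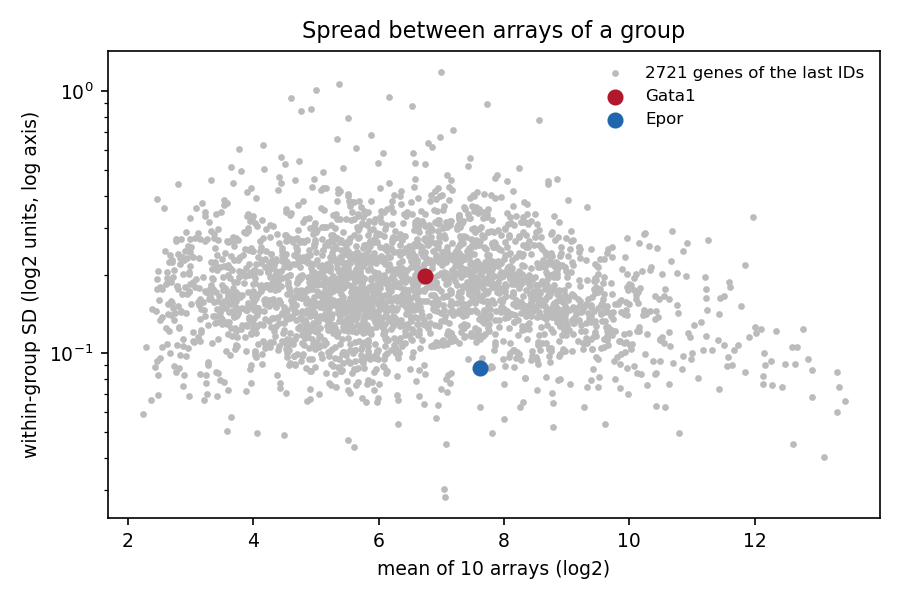
Within-group SD (log axis) against mean log2 value for the 2721 placed genes, with Gata1 in red and Epor in blue. Epor, at 0.088, sits near the lower edge of genes of its level, and Gata1, at 0.197, near the middle.

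The array-to-array patterns of the genes were unlike. With group means taken out, Pearson's r between Gata1 and Epor over the 10 arrays was 0.02. This describes arrays that share a scale and come from only 5 mice. Among 1457 placed genes at or above the median level of all rows, those most like Gata1 were Dbr1, the lariat debranching enzyme (r = 0.89), Sf3b3, a splicing factor subunit (r = 0.87), and Mmgt1, a membrane magnesium transporter (r = 0.87). Those most like Epor were Psmb10, an immunoproteasome subunit (r = 0.93), Nme6, of the nucleoside diphosphate kinase family (r = 0.91), and Rps25, a ribosomal protein (r = 0.89). Each is the top of 1457 values over only 10 arrays, where high values of r arise readily. Cbfa2t3, the other placed erythroid factor, had r = 0.15 with Gata1 and 0.57 with Epor.

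Of the 25 erythroid transcription factors listed, Gata1 and Cbfa2t3 could be placed. Cbfa2t3 encodes ETO2, a corepressor that sits in the complex of TAL1 and GATA1. Jam2+ arrays had a mean of 8.31 ± 0.10 (SD, n = 5) and Jam2- arrays one of 8.26 ± 0.14 (SD, n = 5). The groups differed by 0.046 (SE 0.088, limma adjusted p = 1.00), which became -0.0059 when Jam2- replicate 6 was dropped and -0.047 when Jam2+ replicate 1 was dropped as well. Klf1, Tal1, Gfi1b, Nfe2 and the others were not analysed here.

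Of the 35 genes listed for erythropoietin signalling, 7 were placed, with Epor among them. Of these, 0 passed the threshold, 4 lay above 0 and 3 below, and the median difference was 0.04, against 0.01 over all 2721 genes, of which 52% lay above 0. Cish, a feedback inhibitor that STAT5 induces, was at 9.15 to 9.47 in Jam2+ and 9.08 to 9.25 in Jam2- arrays, a difference of 0.12 (SE 0.087) that was 0.072 without Jam2+ replicate 4. Its Jam2+ replicates 4 and 6, at 9.47 and 9.45, stood above every Jam2- array, and the remaining 3 lay within the Jam2- range.

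Socs3, another feedback inhibitor of cytokine receptors, had the largest difference of the list in size, -0.27 (SE 0.19). It was at 6.81 in Jam2+ replicate 1, against 7.60 to 8.06 in the other Jam2+ and 7.79 to 7.93 in the Jam2- arrays. Without that array the difference was -0.075. Map2k1, which encodes the kinase MEK1, differed by -0.20 (SE 0.12), and was lower in Jam2+ in 5 of 5 same-numbered comparisons. Jam2+ arrays ranged from 8.12 to 8.64 and Jam2- arrays from 8.38 to 8.78, so the groups overlapped. With Jam2+ replicate 1 and Jam2- replicate 6 both dropped the Map2k1 difference was -0.087. The adaptor Gab1, the ubiquitin ligase Cbl and the lipid kinase subunit Pik3cb differed by 0.037, 0.069 and -0.16 (SE 0.16, 0.11 and 0.15). With single arrays left out these ran from -0.075 to 0.12, from 0.022 to 0.15 and from -0.26 to -0.069 in turn.

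Haem synthesis and handling was represented by 5 of 31 listed genes. All 5 differences lay below 0, with a median of -0.12 and 0 passing the threshold. Over all 2721 placed genes, 1305 differences lay below 0 and the median was 0.01. Alas1, the ubiquitous counterpart of Alas2, was at 7.28, 7.21, 7.28, 7.06 and 7.18 in Jam2+ replicates 1, 2, 4, 5 and 6. In Jam2- HSCs it was at 7.09, 7.16, 7.19, 7.29 and 7.43, and the groups overlapped widely. Jam2+ minus Jam2- was -0.03 (SE 0.083), with a 95% interval from -0.21 to 0.15 (limma adjusted p = 1.00).

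Slc25a38, the mitochondrial carrier that brings in glycine for the ALAS reaction, differed by -0.05 (SE 0.12). It ranged from 6.76 to 6.97 in Jam2+ and from 6.55 to 7.20 in Jam2- arrays. Clpx, the unfoldase subunit that activates ALAS by helping its cofactor bind, differed by -0.12 (SE 0.097), and by -0.065 without Jam2- replicate 2 and -0.19 without Jam2- replicate 6. Pgrmc1, a haem-binding protein that interacts with ferrochelatase, differed by -0.13 (SE 0.10) and was lower in Jam2+ in 5 of 5 same-numbered comparisons. Its difference was -0.052 without Jam2- replicate 6 and -0.019 with Jam2+ replicate 1 dropped as well.

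Abcb10, a mitochondrial transporter needed for haem production in red cell precursors, had the largest difference of the haem genes in size. It was at 7.45, 7.49, 7.55, 7.47 and 7.29 in Jam2+ and 7.54, 7.61, 7.52, 7.96 and 7.56 in Jam2- replicates 1, 2, 4, 5 and 6. Jam2- replicate 5 stood above the rest, and the groups overlapped only through Jam2+ replicate 4 and Jam2- replicates 1 and 4. Jam2+ minus Jam2- was -0.18 (SE 0.098; limma unadjusted p = 0.087, adjusted p = 1.00; exact permutation p = 0.0238), and -0.10 without Jam2- replicate 5. The exact p was not adjusted for the 18 pathway genes examined.

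Leaving out 1 array at a time kept 4 or 5 of the 5 haem genes below 0. The median over the 5 was -0.052 without Jam2- replicate 6, -0.065 without Jam2- replicate 2 and -0.049 with Jam2+ replicate 1 and Jam2- replicate 6 both dropped. The mean log2 level of the 5 genes ran from 7.65 to 7.71 in Jam2+ arrays. In Jam2- replicates 1, 2, 4, 5 and 6 it was 7.62, 7.85, 7.77, 7.88 and 7.84. The Jam2+ arrays were the tighter group. All Jam2- arrays but replicate 1, which was the lowest of all, lay above every Jam2+ array.

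Iron uptake and iron-sulphur assembly was represented by 4 of 29 listed genes, of which 1 lay above 0 and 3 below, with 0 passing the threshold. Mon1a, a vesicle trafficking protein tied to iron export, was at 7.90, 7.87, 8.10, 8.06 and 8.10 in Jam2+ and 8.10, 8.11, 8.25, 8.30 and 8.17 in Jam2- replicates 1, 2, 4, 5 and 6. The groups met at 8.10, and Jam2+ was lower in 5 of 5 same-numbered comparisons. Jam2+ minus Jam2- was -0.18 (SE 0.079; limma unadjusted p = 0.0438, adjusted p = 1.00; exact permutation p = 0.0159). Of the 18 pathway genes, Mon1a alone had an unadjusted limma p under 0.05, where 4.23% of the 2721 genes had one and 1.87% had one in that direction. That count of 1 fell to 0 without any one of Jam2+ replicates 1, 2 and 5 and Jam2- replicates 4 and 5, and was 2, with Map2k1, without Jam2+ replicate 6 and under the replicate block. Without Jam2- replicate 6, and with Jam2+ replicate 1 dropped as well, the 1 gene was Ireb2.

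Ireb2, the iron-regulatory RNA-binding protein that adjusts transferrin receptor and ferritin production, differed by -0.16 (SE 0.12), and by -0.25 without Jam2- replicate 6. Fdx1, a mitochondrial electron carrier, differed by 0.08 (SE 0.083), and by 0.017 without Jam2- replicate 1. Heph, an iron oxidase best known from the gut, differed by -0.02 (SE 0.090), at a level that 12 of 140 receptor genes exceeded.

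Of all 2721 placed genes, 1305 had a difference below 0. Over the 18 placed genes of the 4 pathway lists, 0 were called, 12 lay below 0 and 6 above, and the median difference was -0.08. Dropping single arrays gave 11 to 13 below 0. Under a fit with the replicate number as a block, 0 were called. These counts describe the genes and are not a test of the pathway. Promoter stretches were listed for 17 of the 18 genes; 4 (Cbfa2t3, Epor, Fdx1 and Mon1a) held a GATA form and 7 held CCACCC in at least 1 stretch. Over all stretches, counted singly, these shares were 26.5% and 28.1%.

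**Figure D4:**
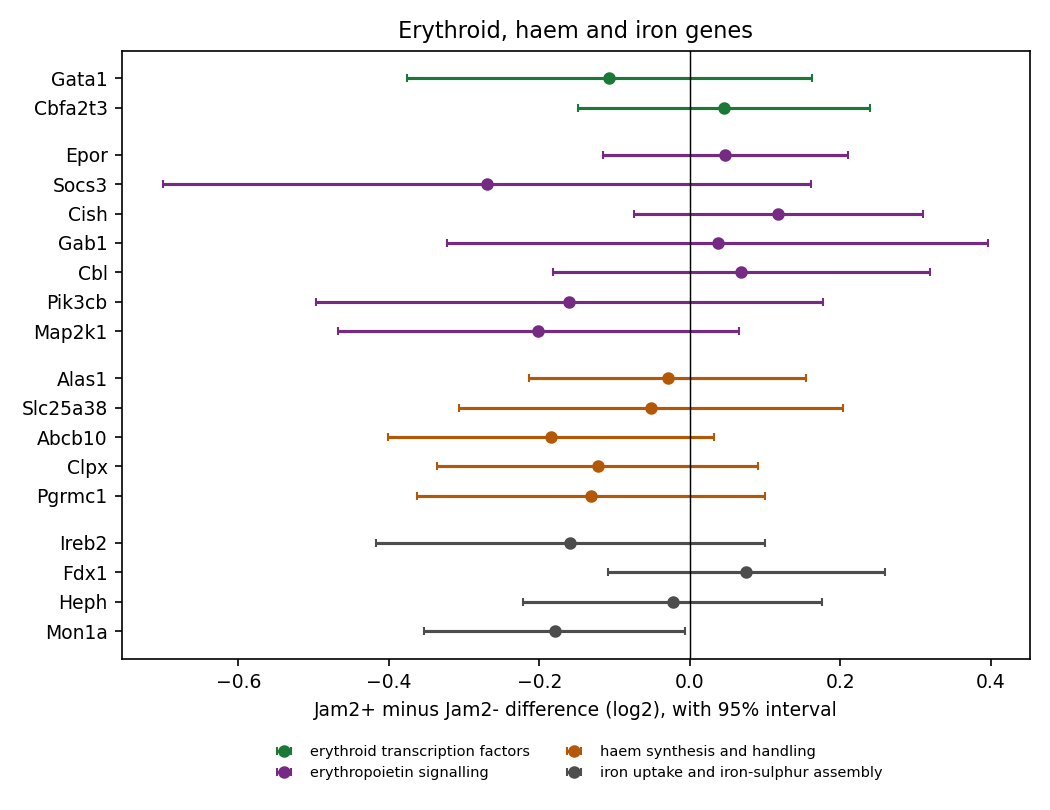
Jam2+ minus Jam2- difference on the log2 scale (points) with its 95% interval from limma (bars) for the 18 placed genes, coloured by list. All intervals but that of Mon1a, which ends at -0.0060, include 0. All 5 haem genes lie to the left of 0, as do 1305 of all 2721 placed genes, which are not drawn.

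Red cell proteins themselves could hardly be examined, since 2 of 38 listed were placed. Icam4, a red cell adhesion protein, differed by -0.21 (SE 0.11), and Xk, a red cell membrane protein of the Kell complex, by -0.01 (SE 0.15; limma adjusted p = 1.00 for both). The mean log2 level of the pair ran from 7.75 to 8.17 in Jam2+ and from 7.87 to 8.30 in Jam2- arrays. Haemoglobin genes were not analysed here.

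Markers of other blood cells were set beside these values. The megakaryocyte list, 3 of 29 genes, ran from -0.13 for Fli1 to 0.09 for Ets1, both ETS factors, with 0 called. The stem cell list, 5 of 29 genes, ran from -0.25 for Jam3, a partner molecule of Jam2, to 0.07 for Robo4, an endothelial and HSC guidance receptor, with 0 called. The T and NK cell list, 4 of 18 genes, ran from -0.08 for Cd3g to 0.14 for Thy1, and Cd3e differed by -0.01. Btk, of the B cell list, differed by -0.06 and Col1a2, of the stroma list, by -0.04. Macrophage and mast cell markers had 0 genes placed.

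Neutrophil and monocyte markers, 6 of 26 genes, differed most, with 5 of 6 below 0, a median of -0.49 and 0 called. Camp and Ngp, which encode granule proteins, differed by -1.72 and -1.56 with standard errors of 0.59 and 0.49, and Ltf, lactoferrin, by -0.77 (SE 0.34), which was -0.42 without Jam2- replicate 5. Ccr2, a monocyte chemokine receptor, was the highest at 0.04. Camp was at 7.88 and 7.77 in Jam2- replicates 2 and 5 and at 4.85 to 5.59 in the other Jam2- arrays, against 4.13 to 4.77 in Jam2+ arrays. Its groups did not overlap, which held for 0.992% of the 2721 genes. The mean log2 level of the 6 genes ran from 4.99 to 5.11 in Jam2+ and from 5.17 to 6.56 in Jam2- arrays. Jam2- replicate 4, highest for Gata1, had Camp at 5.02, Ngp at 7.22 and Ltf at 6.04, and a mean of 5.59 over the 6 genes. Jam2- replicate 5, highest for Abcb10 and Mon1a, had Camp at 7.77, Ngp at 8.88 and Ltf at 7.43. Jam2- replicate 2, highest for Camp, had Ngp at 8.19 and Ltf at 5.88. Its Gata1, Abcb10 and Mon1a were at 6.73, 7.61 and 8.11, below the highest Jam2- value of each. In Jam2+ arrays Ngp ran from 5.57 to 6.02 and Ltf from 5.17 to 5.35. The part of these markers in the haem and iron gene differences was not tested.

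**Figure D5:**
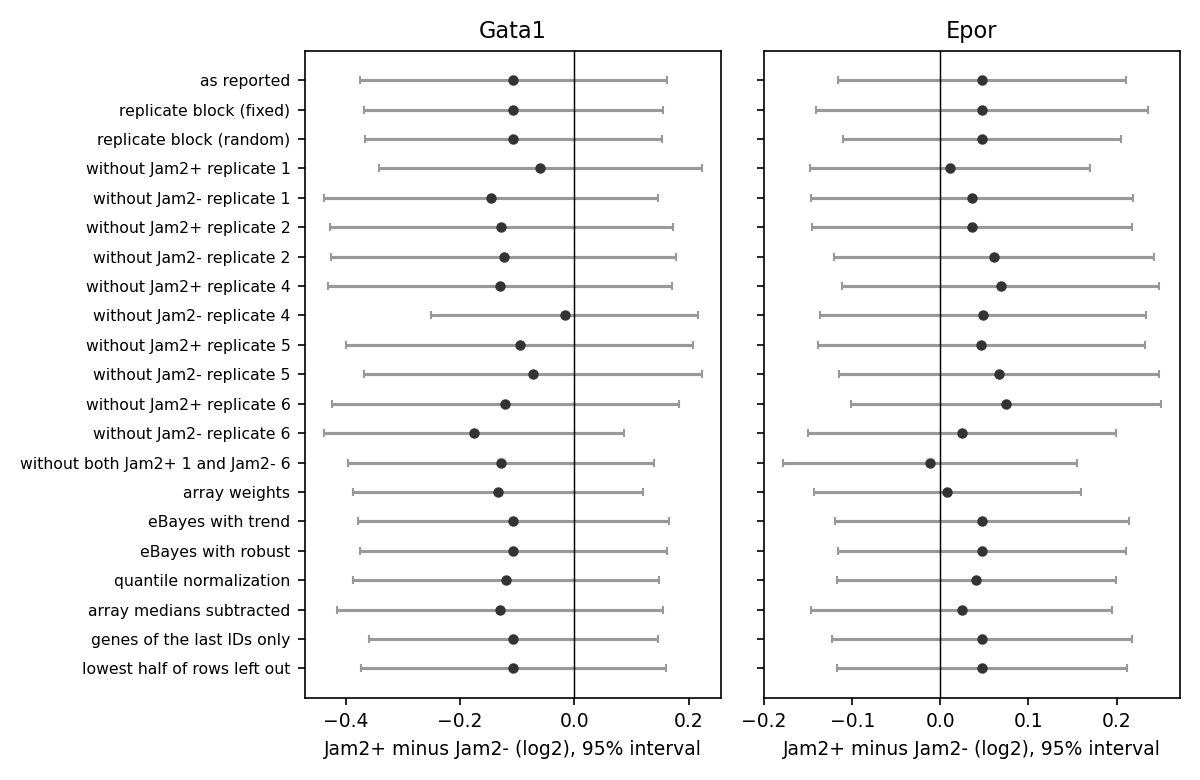
Jam2+ minus Jam2- difference (log2) of Gata1 (left) and Epor (right) as reported and under each alternative fit, with 95% intervals; the panels have different horizontal scales. Every interval includes 0, and the Gata1 estimate is closest to 0, at -0.017, without Jam2- replicate 4.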

How the data were processed

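The authors deposited log2 expression values for 41345 rows on each array. Per the submitters' processing notes the R package oligo was used; how background was corrected and arrays were normalized is not given in the sources used here. Arrays give no read depth, and their number limits precision. IDs were placed as the report describes, with names from the platform annotation; 2664 of the 2721 genes had their Entrez identifier in the RefSeq table of GRCm38.p6. The brightest row stood for a gene.

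limma's lmFit and eBayes were run on all rows, with group as the only term, Benjamini-Hochberg adjustment over all rows and a threshold of 0.05, after a check on simulated data. For single genes an exact permutation test, two-sided, ran over 252 assignments. Named were the members, all placed genes of 4 pathway lists, the highest and lowest gene of each marker list and Cd3e; Ngp and Ltf, Trpc6 in the check of cell type, and the genes named in the check of placement were added after their values were seen, as was the scan of identical rows. Members and lists were chosen with earlier results of these data known. The tools were limma 3.58.1 in R 4.3.3, and scipy 1.17.1, numpy 2.4.6 and pandas 2.3.3 in Python 3.11.15, with matplotlib 3.10.9 for figures.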

Additional observations from a re-analysis of the deposited data

Results flagged for a closer look

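Of 46 groups of 5 arrays examined for a value far from the rest, 2 held one, where chance gives about 2.3. Abcb10 was at 7.96 in Jam2- replicate 5, against 7.61 in the nearest array of its group. Ireb2 was at 7.22 in Jam2- replicate 6, against 7.59 in the nearest.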

How the results depend on the processing

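For the 33 genes of the pathway and marker lists put through alternative runs, 0 differences passed the threshold under any of them. Genes named only for likeness, or only in the checks of cell type and placement, were not among the 33. Of 657 values, 622 kept their direction. The 657 include the rows beside Gata1 and Epor, which belong to other genes. With single arrays left out, Gata1 ran from -0.18 to -0.017 and Epor from 0.011 to 0.075, with no change of sign. Signs did change for Cbfa2t3 (-0.0059 to 0.077), Gab1 (-0.075 to 0.12), Alas1 (-0.065 to 0.019), Slc25a38 (-0.15 to 0.015), Heph (-0.073 to 0.033), Xk (-0.11 to 0.10), Ets1 (-0.047 to 0.17), Ccr2 (-0.0051 to 0.083), Btk (-0.14 to 0.029), Col1a2 (-0.14 to 0.072) and Cd3e (-0.094 to 0.062). When Jam2+ replicate 1 and Jam2- replicate 6 were both dropped, the differences that changed sign were -0.012 for Epor, -0.047 for Cbfa2t3, -0.058 for Gab1, 0.0037 for Xk, -0.024 for Ets1, -0.025 for Robo4, 0.089 for Col1a2 and 0.13 for Cd3e. With array weights they were 0.00079 for Col1a2 and 0.070 for Cd3e. The cause was not tested. The rows beside the placed ones, which belong to other genes, gave 0.016 and 0.16 for Gata1, and -0.13 before Epor. Gata1 and Epor each had a single row, so averaging the rows of a gene changed neither value.

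Leaving out 1 array called 0 to 1 rows, the 1 without Jam2+ replicate 6. Rows at an unadjusted limma p under 0.05 were 132 when the 2721 placed genes were fitted alone. The same genes had 115 in the fit of all rows. Without the lowest rows by mean the count was 921, with 20673 rows tested. With the replicate number as a block, Gata1 differed by -0.11 with a standard error of 0.11 and Epor by 0.05 with one of 0.079, and 0 rows were called. The deviations from group means of arrays that share a number had r = 0.11, -0.02, 0.0086, 0.05 and 0.064 over all rows. For 4 of 10 arrays the best match in the other group was the array of that number. These values cannot decide whether the numbers mark pairs. The numbers were not taken as pairs because the labels do not tie them to mice. What signal over background limits can be judged only from the receptor genes given above.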
